A study of Mus musculus with 2 samples.

Results

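The genes described here are 39 mouse genes known to be imprinted, chosen by symbol from general knowledge. No value measured in these libraries entered the rule, but earlier results of these data were known when the list was made. Rows for 38 of the 39 were present among the 43346 mouse genes of both gene tables, and Peg13 was not analysed here. RNA from whole ovary was sequenced in 2 libraries of 1 group, replicate 2 and replicate 1, each labelled as ovary of C57BL/6J female littermates aged 8 weeks, untreated. Libraries were made from polyadenylated RNA longer than 200 nucleotides, after removal of ribosomal RNA. Both libraries cite 1 donor record, so the spread between them may be technical, and with 1 group the only comparison was replicate 2 against replicate 1. Levels are in TPM, the share of transcripts after division by transcript length, so that genes can be compared with each other.

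An imprinted gene is read mainly from the copy inherited from 1 parent, because DNA methylation laid down in the egg or the sperm marks that copy. The genes lie in clusters, each ruled by an imprinting control region, and many clusters pair growth-promoting paternally expressed genes with growth-limiting maternally expressed genes and a long noncoding RNA. In the ovary the marks are erased in the germ line and laid down again in growing oocytes, while granulosa, theca and stromal cells keep the inherited pattern. The mice are inbred and the tables hold no allele counts, so which parental copy was read was not measured, and "maternally expressed" and "paternally expressed" below are textbook classes.

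Gene counts totalled 34930872 in replicate 2 and 41124064 in replicate 1. All 10 oocyte, 9 granulosa, and 7 theca, interstitial and luteal markers reached 1 TPM in both libraries, led by Zp3, Inha and Hsd3b1. So did all 6 oviduct epithelium markers (led by Ovgp1), 6 fat markers (Cfd), 6 smooth muscle markers (Acta2), 7 stromal (Col1a2), 6 endothelial (Egfl7), 6 macrophage (C1qc) and 5 red cell markers (Hba-a2), so markers of tissue beside the follicles were present. The summed level of the oviduct markers was 881 TPM in replicate 2 and 953 TPM in replicate 1. In whole tissue, fewer cells of a type and less RNA per cell cannot be told apart.

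Most of the imprinted genes were expressed in the adult ovary. Of the 38, 29 (76.3%) reached 1 TPM in both libraries, against 62.0% of 21474 protein-coding genes. Of the 31 protein-coding members 24 did so (77.4%), and of the 7 noncoding members 5 did so, against 8.15% of 5691 long noncoding genes. At 10 TPM the count was 20 members (52.6%), against 37.7% of protein-coding genes, and 6 members reached 100 TPM: Gnas, Meg3, Mest, Nnat, Rian and Osbpl5. The median of the members' mean levels was 14.9 TPM, against 4.45 TPM for protein-coding genes. These shares are descriptions and carry no test.

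**Figure D1:**
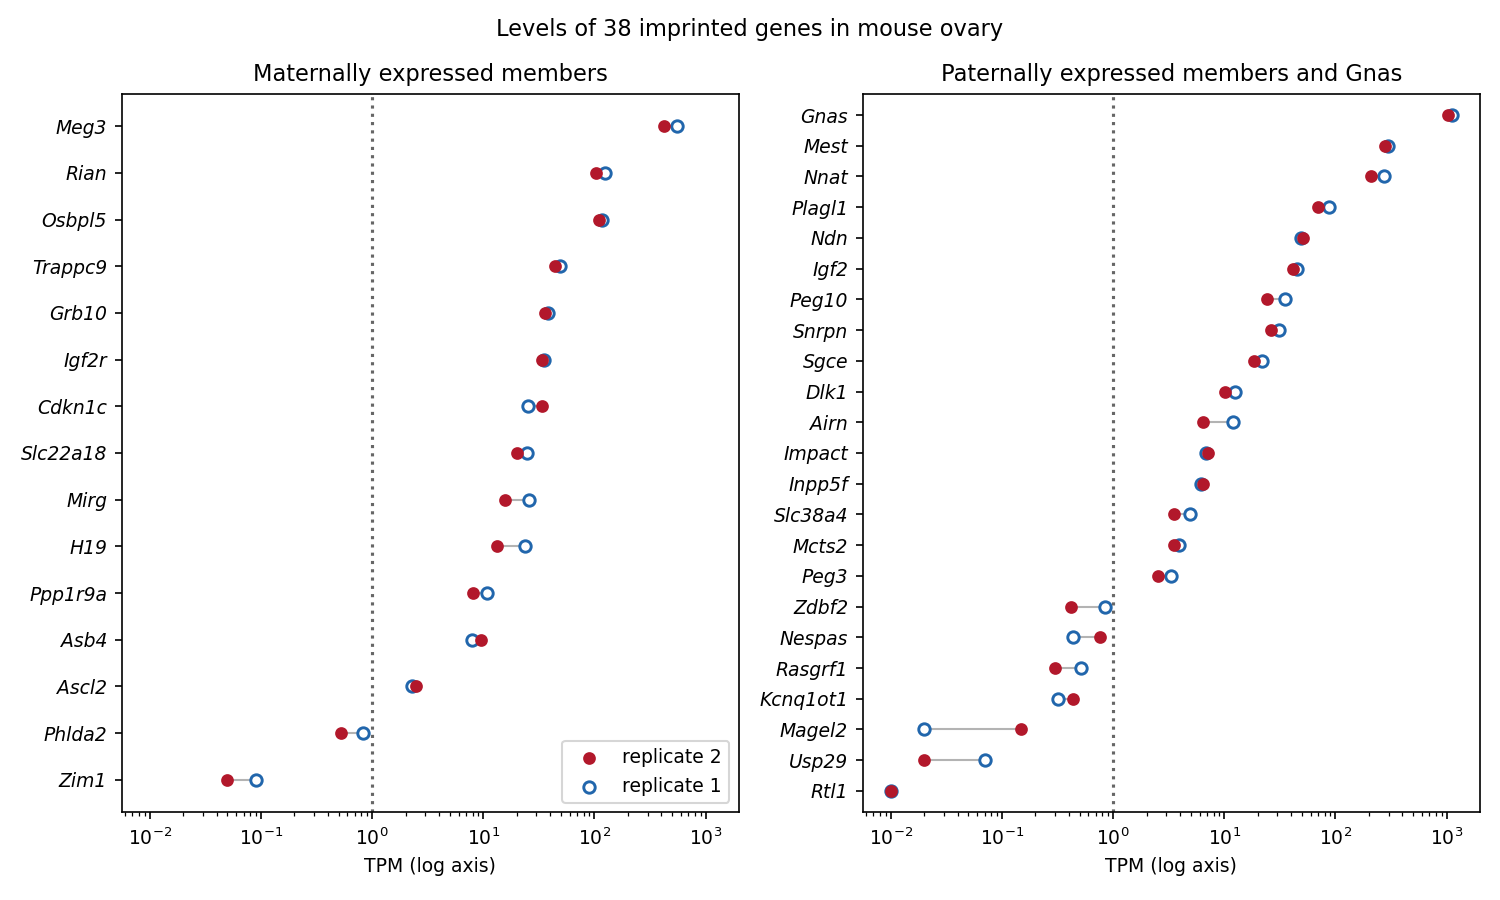
TPM (log axis) of the 38 imprinted genes in replicate 2 (filled) and replicate 1 (open), split by the textbook class of the copy that is read and ordered by mean level, with a dotted line at 1 TPM. Gnas stood highest at 1021 TPM in replicate 2 and 1109 TPM in replicate 1, and 9 members lay under 1 TPM.

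The 15 maternally expressed members summed to 853 TPM in replicate 2 and 1038 TPM in replicate 1, a mean of 946 ± 131 TPM (SD, n = 2). The 22 paternally expressed members with a row summed to 758 TPM in replicate 2 and 893 TPM in replicate 1, a mean of 825 ± 95.4 TPM (SD, n = 2). The maternally expressed sum was the higher within each library, though the sums of the classes overlapped between libraries. Osbpl5 gave 109 TPM of the maternally expressed sum in replicate 2 and 117 TPM in replicate 1. Trappc9, whose maternal bias is known in brain, gave 44.6 TPM in replicate 2 and 49.3 TPM in replicate 1. Without Osbpl5 and Trappc9 the maternally expressed sum would be the lower in each library, so the order depends on class membership. Meg3 alone gave 425 TPM of the maternally expressed sum in replicate 2 and 553 TPM in replicate 1. Of the maternally expressed members 13 reached 1 TPM, and of the paternally expressed members 15 did. Gnas, whose forms differ in which copy is read, made up 38.8% of the members' summed TPM in replicate 2 and 36.5% in replicate 1.

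Gnas encodes Gs alpha, the G protein subunit through which the gonadotropin receptors raise cyclic AMP. The gene (chr2:174284320-174346744, mm10) is read from several first exons. It ranked 109 among all mouse genes by mean TPM, at 1065 ± 62.3 TPM (SD, n = 2). Forms starting between 174330006 and 174330287, the position of the first exon of Gs alpha, carried 91.9% of the Gnas TPM in replicate 2 and 92.8% in replicate 1. Gs alpha is read from both copies in most tissues, with maternal bias in a few. Forms starting between 174327570 and 174328023, in the stretch where the paternally read exon 1A lies, carried 7.09% in replicate 2 and 5.83% in replicate 1. The forms at the Nesp start, maternally read and encoding a chromogranin-like protein, had 2.86 TPM in replicate 2 and 2.25 TPM in replicate 1. Those at the start of the paternally read XL form, at 174297859, had 0.01 TPM in replicate 2 and 0.12 TPM in replicate 1. First exons were assigned by their known order along the locus. Nespas, the paternally read RNA antisense to Nesp, had 0.77 TPM in replicate 2 and 0.44 TPM in replicate 1, on 32 and 18 counts. Whether counting used the strand was not stated, so reads of Nespas and of Gnas where they overlap cannot be told apart.

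The Dlk1-Meg3 cluster on chr12 had the highest summed level after Gnas, 553 TPM in replicate 2 and 716 TPM in replicate 1, nearly all of it in noncoding RNA. Meg3 (chr12:109541001-109571726), a maternally expressed long noncoding RNA, had 425 TPM in replicate 2 and 553 TPM in replicate 1. Rian (chr12:109603940-109661716), a maternally expressed host of small nucleolar RNAs, had 102 TPM in replicate 2 and 125 TPM in replicate 1. Mirg, the maternally expressed host of a microRNA cluster, had 15.7 TPM in replicate 2 and 25.5 TPM in replicate 1. Replicate 2 was the lower library for all 3 in TPM. Dlk1, the paternally expressed transmembrane protein that restrains differentiation in fat and other cells, had 10.2 TPM in replicate 2 and 12.4 TPM in replicate 1. The mean was 489 ± 90.3 TPM (SD, n = 2) for Meg3 and 11.3 ± 1.58 TPM for Dlk1. Meg3 thus stood 41.8 times above Dlk1 in replicate 2 and 44.5 times above it in replicate 1, or 18.4 times in replicate 2 and 15.1 times in replicate 1 with forms of at least 1000 bases alone. Rtl1, the paternally expressed retrotransposon-derived gene needed for the placenta, had 2 counts in replicate 2 and 1 count in replicate 1, under the 3 counts that a count of 0 allows.

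In the Igf2-H19 cluster on chr7, both partners were expressed. Igf2 (chr7:142650766-142666816), the paternally expressed growth factor, had 41.7 TPM in replicate 2 and 45.1 TPM in replicate 1. H19 (chr7:142575529-142578143), the maternally expressed noncoding RNA that shares enhancers with Igf2, had 13.2 TPM in replicate 2 and 23.95 TPM in replicate 1. The mean was 43.4 ± 2.43 TPM (SD, n = 2) for Igf2 and 18.6 ± 7.63 TPM for H19. Igf2 was the higher gene of the pair in both libraries, by 3.17 times in replicate 2 and 1.88 times in replicate 1. That order turned when only forms of at least 1000 bases were counted, a choice made after seeing the data. Igf2 then had 3 TPM in replicate 2 and 3.60 TPM in replicate 1, and H19 had 10.2 TPM in replicate 2 and 12.9 TPM in replicate 1. The turn depends on where the cut falls. The leading Igf2 form, Igf2-208 of 958 bases, lay just under it. Igf2-208 alone had 19.75 TPM in replicate 2 and 19.2 TPM in replicate 1, above the long forms of H19. Igf2r, the maternally expressed receptor that clears Igf2, had 33.6 TPM in replicate 2 and 34.8 TPM in replicate 1. Its paternally expressed antisense partner Airn had 6.39 TPM in replicate 2 and 12.02 TPM in replicate 1. The Airn and Igf2r genes overlap on opposite strands, so reads in the overlap cannot be told apart if counting ignored the strand. Grb10, an adaptor that dampens insulin and IGF receptor signalling, had 35.7 TPM in replicate 2 and 38.04 TPM in replicate 1. The Grb10 form starting at 12037401, the upstream promoter read from the maternal copy outside neurons, carried 85.2% of its TPM in replicate 2 and 86.4% in replicate 1. The start at 12027971, downstream of it, carried 4.70% in replicate 2 and 7.60% in replicate 1, and the start at 12026324 carried 4.48% in replicate 2 and 3.29% in replicate 1.

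In the Kcnq1ot1 cluster on chr7, the maternally expressed genes ranged widely. Osbpl5 (chr7:143688762-143756985), an oxysterol-binding protein relative that moves lipids, had 109 TPM in replicate 2 and 117 TPM in replicate 1. Cdkn1c, the cell cycle inhibitor p57, had 33.4 TPM in replicate 2 and 25.2 TPM in replicate 1. Slc22a18, a transporter of the organic cation family, had 20.2 TPM in replicate 2 and 24.5 TPM in replicate 1. The placental genes were low, with Ascl2, a transcription factor, at 2.50 TPM in replicate 2 and 2.28 TPM in replicate 1, and Phlda2, which limits placental growth, at 7 counts in replicate 2 and 13 counts in replicate 1. Kcnq1ot1, the paternally expressed noncoding RNA that silences this cluster, had 0.44 TPM in replicate 2 and 0.32 TPM in replicate 1. Its gene model is 84395 bases long, so that low TPM rested on 901 counts in replicate 2 and 794 counts in replicate 1. Kcnq1ot1 is antisense to Kcnq1, which had 16.3 TPM in replicate 2 and 14.4 TPM in replicate 1, and intronic reads of Kcnq1 could enter its count.

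Among paternally expressed genes, Mest (chr6:30723547-30748465), a hydrolase-like protein of mesoderm, had 276 TPM in replicate 2 and 297 TPM in replicate 1. Nnat (chr2:157560078-157562522), a small membrane proteolipid that modulates calcium stores, had 208 TPM in replicate 2 and 274 TPM in replicate 1. Plagl1 (Zac1), a zinc finger factor that slows the cell cycle, had 70.2 TPM in replicate 2 and 87.0 TPM in replicate 1. Mest averaged 287 ± 15.2 TPM, Nnat 241 ± 46.5 TPM and Plagl1 78.6 ± 11.9 TPM (SD, n = 2). The level of Mest, unlike those of Nnat and Plagl1, fell below the members' median when only forms of at least 1000 bases were counted, as given below. In the Snrpn cluster, Ndn, a growth-suppressing MAGE protein, had 51.1 TPM in replicate 2 and 49.3 TPM in replicate 1, and Snrpn, a splicing protein, had 26.04 TPM in replicate 2 and 31.05 TPM in replicate 1. The gene counts of Snrpn and of Meg3 were fractional, so some reads of each were shared out with other genes. Magel2, the neighbour of Ndn, had only 16 counts in replicate 2 and 3 counts in replicate 1.

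Peg10, a domesticated retrotransposon essential for the placenta, had 24.4 TPM in replicate 2 and 35.4 TPM in replicate 1. Its head-to-head neighbour Sgce, epsilon-sarcoglycan, had 18.7 TPM in replicate 2 and 22.0 TPM in replicate 1. In the same cluster the maternally expressed Ppp1r9a (neurabin) had 8 TPM in replicate 2 and 10.9 TPM in replicate 1. Asb4, a maternally expressed ubiquitin ligase adaptor, had 9.44 TPM in replicate 2 and 7.92 TPM in replicate 1. Trappc9, a vesicle-trafficking subunit maternally biased in brain, had 44.6 TPM in replicate 2 and 49.3 TPM in replicate 1. Peg3, a paternally expressed zinc finger gene, had 2.53 TPM in replicate 2 and 3.34 TPM in replicate 1, while its neighbours Zim1 and Usp29 had between 1 and 9 counts. The other members at 1 TPM or more were Impact, a regulator of stress translation, Inpp5f, an inositol phosphatase, Slc38a4, an amino acid transporter, and Mcts2, a retrocopy of a translation factor gene. They lay between 3.54 TPM (Mcts2) and 7.21 TPM (Impact) in replicate 2, and between 3.88 TPM and 6.87 TPM in replicate 1 for the same genes. Mcts2 sits in an intron of H13, which had 425 TPM in replicate 2 and 308 TPM in replicate 1. The Mcts2 counts were whole, 62 in replicate 2 and 79 in replicate 1, so no reads were split with other genes. Reads of H13 or Mcts1 could still enter them. Zdbf2 and Rasgrf1, both paternally expressed, lay under 1 TPM in each library.

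The level of several members rested on short transcript models. Of 25 members with at least 2 forms and a mean count of 100, the leading form was under 1000 bases in 5. Mest-204, a noncoding model of 417 bases, held 82.6% of the Mest TPM in replicate 2 and 83.2% in replicate 1, but 56.7% of its counts in replicate 2 and 53.4% in replicate 1. Protein-coding forms held 11.6% of Mest counts in replicate 2 and 16.8% in replicate 1, and a form of 836 bases whose type is not in GENCODE M21 held 31.7% in replicate 2 and 29.6% in replicate 1. With forms of at least 1000 bases alone, Mest had 3.79 TPM in replicate 2 and 6.12 TPM in replicate 1, and the members' median was 8.43 TPM. On the same count Rian had 26.4 TPM in replicate 2 and 34.9 TPM in replicate 1. Meg3 then had 187 TPM in replicate 2 and 187 TPM in replicate 1, so the higher Meg3 level of replicate 1 lay in its short forms. Gnas, Ndn, Trappc9, Grb10 and Igf2r changed little.

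**Figure D2:**
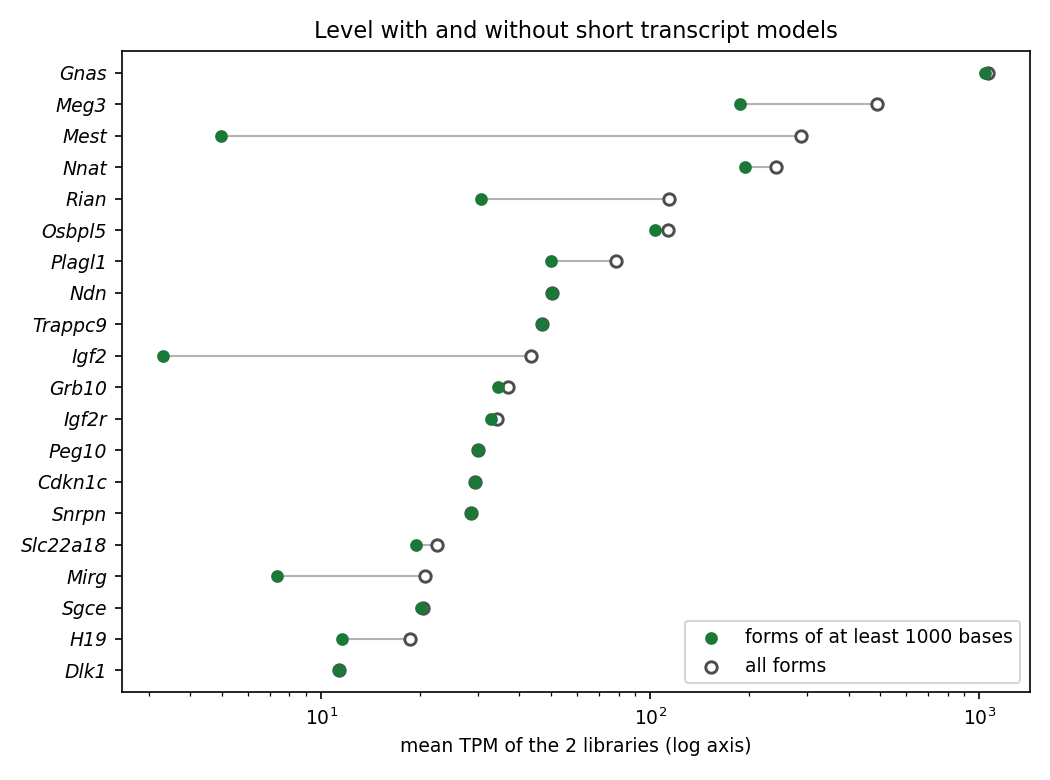
Mean TPM of the 2 libraries (log axis) for the 20 members with a mean of at least 10 TPM, from forms of at least 1000 bases (filled) and from all forms (open). Mest fell to a mean of 4.96 TPM with long forms, against 287 TPM with all forms, while Gnas stayed at 1042 TPM.

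The leading form was the same in both libraries for 21 of the 25 members, and was protein-coding for 17. Gnas-208 held 64.2% of the Gnas TPM in replicate 2 and 64.3% in replicate 1. Peg10-203 held 55.3% in replicate 2 and 55.4% in replicate 1. Igf2r-201 held 97.2% in replicate 2 and 94.2% in replicate 1. Others shifted: Inpp5f-201 held 77.3% of the Inpp5f TPM in replicate 2 and 48.4% in replicate 1. The imprinted Inpp5f form is known to start inside an intron, and which annotated form it is was not worked out here. A retained-intron form starting at 128679686 had 0 TPM in replicate 2 and 1.36 TPM in replicate 1. H19-205 held 60.2% of the H19 TPM in replicate 2 and 37.6% in replicate 1. Osbpl5-204, a model that retains an intron, held 45.8% of the Osbpl5 TPM in replicate 2 and 52.5% in replicate 1. The protein-coding Osbpl5-202 held 45.1% in replicate 2 and 38.5% in replicate 1. By counts the order turned, with Osbpl5-202 at 66.1% in replicate 2 and 59.4% in replicate 1. Osbpl5-204 then held 32.2% in replicate 2 and 38.6% in replicate 1.

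**Figure D3:**
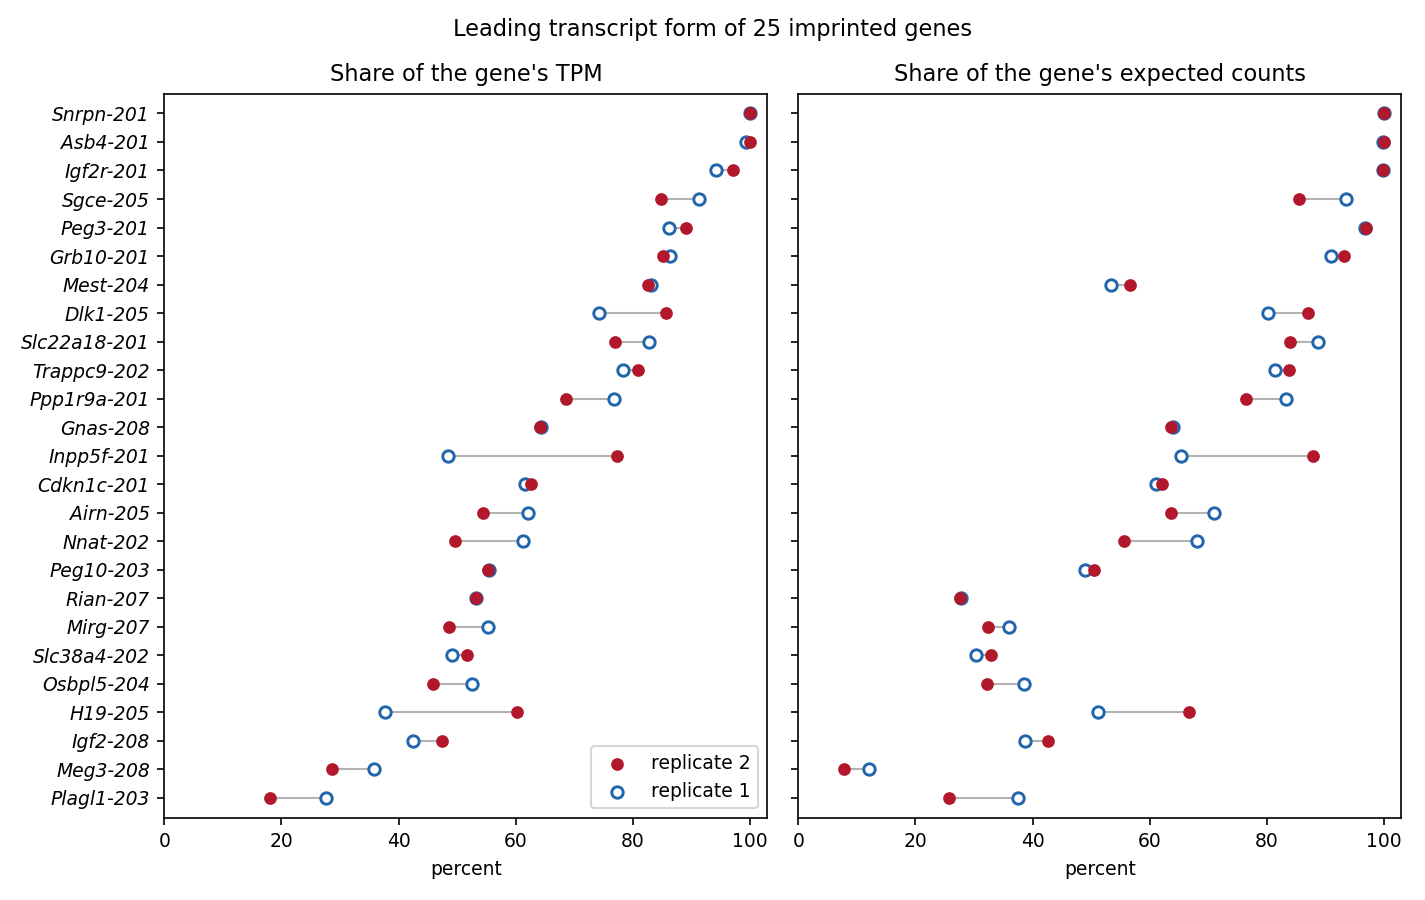
Share of the gene's TPM (left) and of its expected counts (right), in percent, held by the leading form of 25 members in replicate 2 (filled) and replicate 1 (open), ordered by TPM share. Mest-204 held 82.6% of TPM but 56.7% of counts in replicate 2, and Inpp5f-201 and H19-205 differed most between the libraries.

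The promoters of these genes include targets of the zinc finger protein ZFP57, which binds methylated TGCCGC and protects imprints after fertilisation. Windows from 250 bases before to 50 after the start (RefSeq, GRCm38.p6) were found for 30 members. The core TGCCGC, or GCGGCA on the other strand, was present in a window of 11 of these 30 genes (36.7%), against 13.1% of the 27025 genes with a window. By window it was 24% of 50 member windows and 11.6% of all 32851. Member windows were also richer in bases G and C, with a median of 57.7% against 52.7%, and in CpG, with a median observed over expected ratio of 0.587 against 0.384, and the part of base composition in the motif share was not tested. Among members listed with a germline mark at a promoter 6 of 11 held the core, and among the others 5 of 19. Marks were listed by gene and not by window, so a match need not lie at the marked window. The marks were not measured here, so a gene listed without one may still carry one. Grb10, listed with a mark, held 1 match in its window at 12037371 and 0 in that at 12027922. Zdbf2, listed without one, held 3 matches in its window at 63200108, upstream of the annotated gene start at 63273265, and 0 in that at 63273019. The windows of 3 paternally expressed genes with such a mark and high levels are shown, with the core in capitals, beside that of Gs alpha, which held 0 matches. A match is only a match of letters.
Mest, chr6:30737800-30738099, plus strand: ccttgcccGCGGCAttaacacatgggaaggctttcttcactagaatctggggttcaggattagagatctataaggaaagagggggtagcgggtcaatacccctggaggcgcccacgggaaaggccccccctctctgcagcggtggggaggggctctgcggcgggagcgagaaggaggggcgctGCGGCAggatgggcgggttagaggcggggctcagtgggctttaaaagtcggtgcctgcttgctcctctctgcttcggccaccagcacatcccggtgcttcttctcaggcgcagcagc
Nnat, chr2:157559828-157560127, plus strand: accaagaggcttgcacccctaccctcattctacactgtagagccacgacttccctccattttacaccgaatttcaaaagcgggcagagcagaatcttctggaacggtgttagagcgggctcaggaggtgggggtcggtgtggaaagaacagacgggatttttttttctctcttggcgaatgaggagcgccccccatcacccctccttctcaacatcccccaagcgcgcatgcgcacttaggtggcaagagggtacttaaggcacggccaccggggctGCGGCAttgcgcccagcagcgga
Plagl1, chr10:13090582-13090881, plus strand: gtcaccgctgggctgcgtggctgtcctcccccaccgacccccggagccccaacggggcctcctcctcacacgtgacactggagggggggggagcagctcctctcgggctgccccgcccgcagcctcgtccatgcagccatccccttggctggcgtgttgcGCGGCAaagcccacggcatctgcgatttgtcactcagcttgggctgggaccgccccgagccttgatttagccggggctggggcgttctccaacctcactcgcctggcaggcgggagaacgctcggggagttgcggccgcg
Gnas, start of Gs alpha, chr2:174329756-174330055, plus strand: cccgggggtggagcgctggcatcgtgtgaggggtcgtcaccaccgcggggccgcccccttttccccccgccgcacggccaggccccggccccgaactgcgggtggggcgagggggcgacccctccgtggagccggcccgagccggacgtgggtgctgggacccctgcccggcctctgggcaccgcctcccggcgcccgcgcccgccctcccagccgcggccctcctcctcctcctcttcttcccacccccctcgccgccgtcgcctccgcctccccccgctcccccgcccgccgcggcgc
Mest held 2 matches and Nnat and Plagl1 held 1 each. The Gs alpha window had 81.7% G and C, the Plagl1 window 70.7%, the Mest window 62.7% and the Nnat window 57.3%.

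Imprinted clusters are rich in microRNA, and 29 hairpins lay inside members, 14 of them in Mirg and 7 across Rtl1. Mature microRNAs were not measured, since RNA under 200 nucleotides was removed, and 0 counts were assigned to the 27 hairpins with a gene row. Their host RNAs are the ones given above. The sequences of the microRNAs of H19, Igf2 and Mest, whose hosts were all expressed, and of one read against Rtl1, are shown with the seed, bases 2 to 8, in capitals (RefSeq, GRCm38.p6).
miR-675-5p (H19): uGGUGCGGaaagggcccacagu
miR-675-3p (H19): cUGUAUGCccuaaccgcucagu
miR-483-5p (Igf2): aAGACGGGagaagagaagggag
miR-483-3p (Igf2): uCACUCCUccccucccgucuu
miR-335-5p (Mest): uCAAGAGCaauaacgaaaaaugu
miR-335-3p (Mest): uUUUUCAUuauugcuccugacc
miR-127-3p (opposite strand of Rtl1): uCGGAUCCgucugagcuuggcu
miR-453 (Mirg): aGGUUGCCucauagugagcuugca
miR-496a-5p (Mirg): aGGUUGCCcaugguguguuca
The last 2 share the seed GGUUGCC, the only seed shared among the 55 mature microRNAs inside members. The miR-127 hairpin is one of 6 on the strand opposite Rtl1, which itself had 2 counts in replicate 2 and 1 count in replicate 1.

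Between the libraries the members differed slightly. Of the 33 members that averaged 20 counts or more, 16 (48.5%) were lower in replicate 2 and 6 (18.2%) higher, by a two-sided exact binomial test of each gene's counts at an adjusted p under 0.05, while 27.0% of all 15939 genes tested were lower and 29.1% higher. This test compares the reads of 2 libraries and not conditions. The median log2 ratio was -0.10 over the members and -0.01 over all genes tested, and the median size of the log2 ratio was 0.24 for members and 0.23 for all genes. Only Nespas passed 2-fold, as 3.99% of all genes did, on 32 counts in replicate 2 and 18 counts in replicate 1. In edgeR's exactTest, 0 of the 33 members were called and 1 had an unadjusted p under 0.05, against 5.08% of all genes. Its dispersion came from the same 2 libraries that it compares, so the difference tested sets its own spread and few calls follow from the design.

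**Figure D4:**
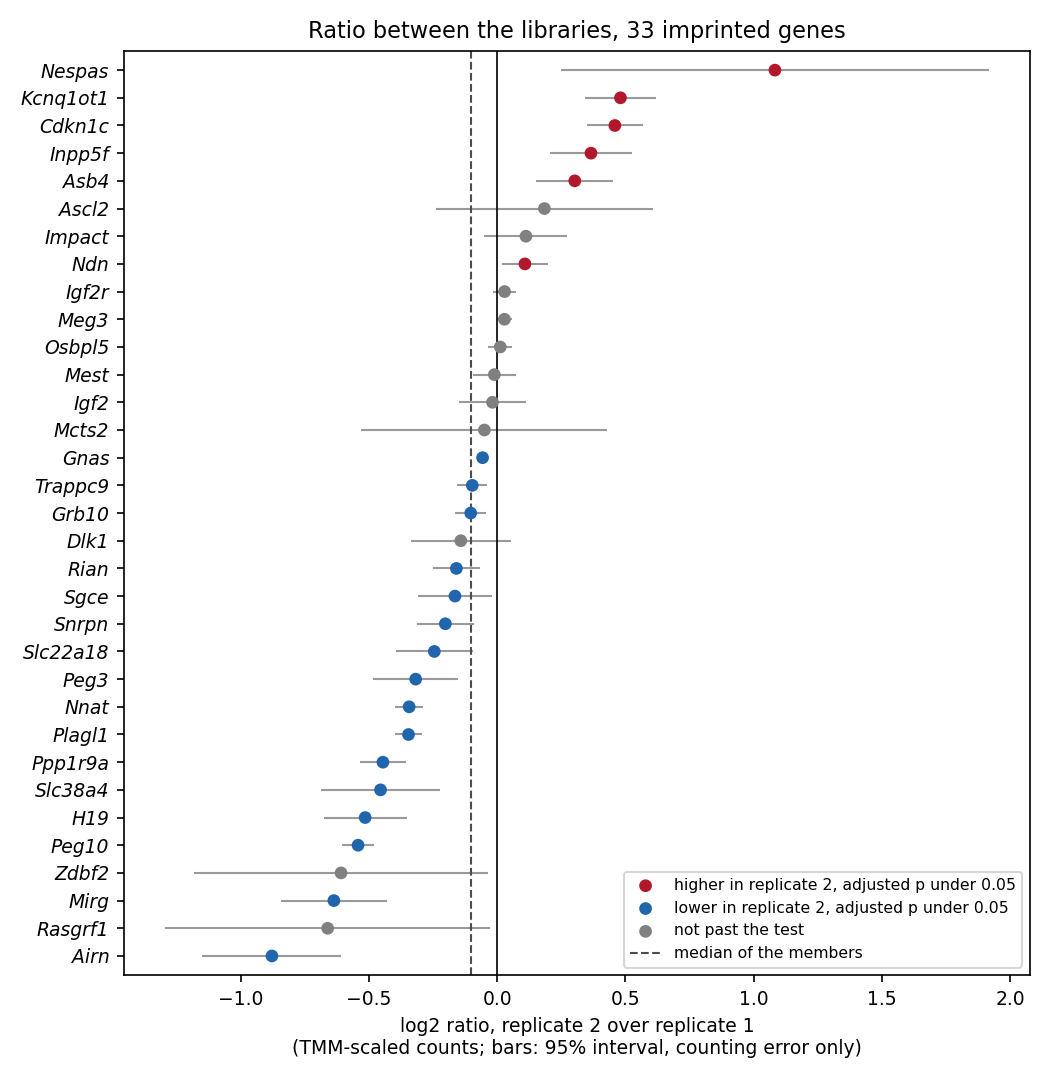
Log2 ratio of replicate 2 over replicate 1 after TMM scaling for the 33 members tested, with 95% intervals for counting error only, coloured by the binomial call, and a dashed line at the members' median of -0.10. Airn lies lowest at -0.88 and Nespas highest at 1.08.

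The 16 members lower in replicate 2 were led by Airn. Airn, with 157 counts in replicate 2 and 356 counts in replicate 1, had a log2 ratio of -0.88 ± 0.14 (SE from counting; adjusted p = 2.5e-10, exact binomial test with Benjamini-Hochberg adjustment). The limit on reads in the overlap with Igf2r, given above, applies to that value. Mirg followed at -0.64, on 283 counts in replicate 2 and 542 counts in replicate 1. Peg10 had 3285 counts in replicate 2 and 5887 counts in replicate 1, a log2 ratio of -0.54 ± 0.03 (adjusted p = 2.4e-67, same exact binomial test). H19 was at -0.51, Slc38a4 at -0.45, Ppp1r9a at -0.45, Plagl1 at -0.35 and Nnat at -0.34. The remaining 8 members lower in replicate 2 lay between -0.32 (Peg3) and -0.06 (Gnas).

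Higher in replicate 2 were Nespas, Kcnq1ot1 at 0.48, Cdkn1c at 0.46, Inpp5f at 0.37, Asb4 at 0.30 and Ndn at 0.11. Scaling to the ERCC spike-ins in place of TMM lowered every log2 ratio by the same amount, a shift of -0.43, and under it 0 members were called higher and Asb4, Ndn and Inpp5f turned below 0.  Meg3 had a log2 ratio of 0.03 from counts and -0.38 as log2(TPM + 1), the count and TPM measures differing in how they weigh the short forms described above. The other 11 members tested, among them Igf2, Igf2r, Mest, Osbpl5 and Dlk1, were not called.

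**Figure D5:**
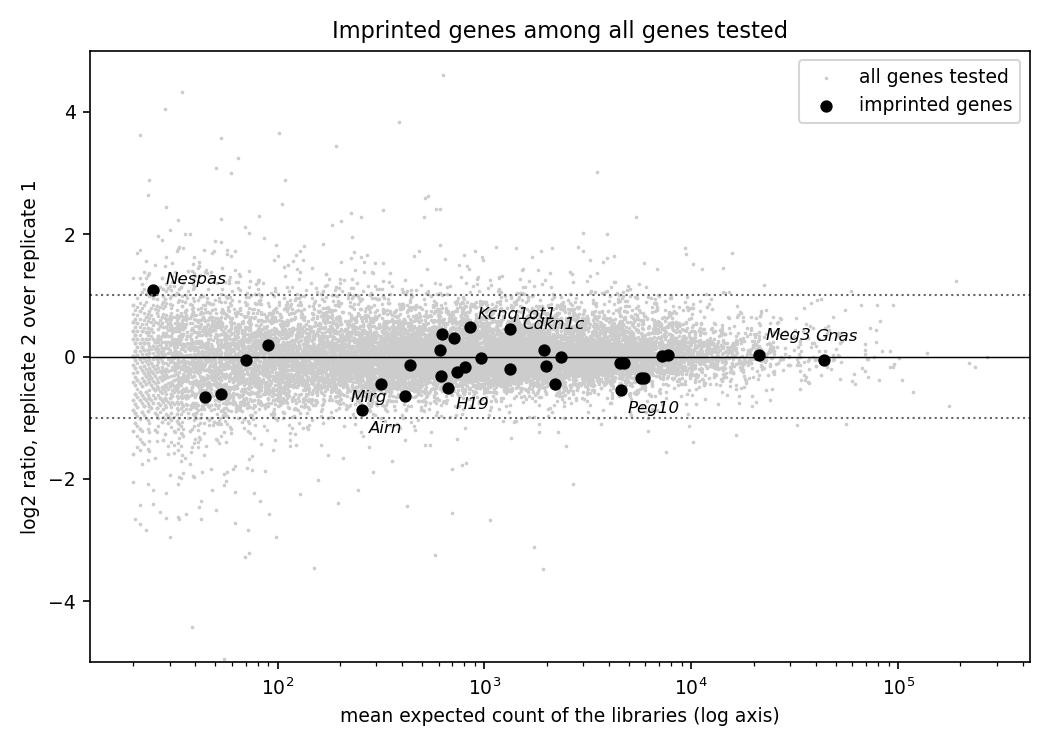
Log2 ratio of replicate 2 over replicate 1 against the mean expected count (log axis) for all 15939 genes tested (grey) and the 33 imprinted genes (black), with dotted lines at 2-fold and 16 genes beyond the plotted range. The members lie within the cloud of all genes, with Nespas just beyond 2-fold.

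Markers of cell types also differed between the libraries, and their part in these ratios was not tested. The median log2 ratio was -0.29 for theca, interstitial and luteal markers, -0.21 for oocyte, -0.04 for granulosa, 0.04 for stromal and 0.17 for fat markers. It was 0.11 for oviduct, 0.07 for smooth muscle, -0.05 for endothelial and -0.07 for macrophage markers. For red cell markers it was 0.91, and all 5 genes were higher in replicate 2. Other lists were mixed: 2 theca, interstitial and luteal markers were called higher and 5 lower, 2 oocyte markers higher and 5 lower, and 4 granulosa markers higher and 4 lower. Over all genes tested 29.1% were higher and 27.0% lower.

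Of 21 genes that set, protect or read imprints, 19 reached 1 TPM in both libraries. Trim28, the corepressor recruited by ZFP57, led at 496 ± 48.1 TPM (SD, n = 2), followed by the histone methyltransferases Ehmt2 at 406 ± 52.4 TPM and Ehmt1 at 76.3 ± 10.1 TPM. Of the 19 tested, 3 were higher and 10 lower in replicate 2, beside 29.1% higher and 27.0% lower over all genes tested. Of 30 genes with a row that neighbour the members, 21 reached 1 TPM, led by Cd81 at 1062 TPM, H13 and Tssc4, and of 23 tested 10 were higher and 5 lower, beside the same shares over all genes. Ube3a, the ubiquitin ligase beside Snrpn that is maternally read in neurons, was the neighbour over 2-fold different, with 39.4 TPM in replicate 2 and 15.8 TPM in replicate 1 and a log2 ratio of 1.36. Of 15 partners of Igf2 signalling, 12 reached 1 TPM, and of 12 tested 6 were higher and 1 lower, beside the same shares. The binding proteins Igfbp7, Igfbp4 and Igfbp6 led them, and Igfbp7 was over 2-fold different, with a log2 ratio of 1.23.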

How the data were processed

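RNA was measured in 2 ovary libraries of 1 group. The authors deposited, per the file headers, gene and transcript tables on mm10 with expected counts (estimated read pairs, which need not be whole), TPM, FPKM (not used here), posterior means and each transcript's percent of its gene's TPM. The sources used here name no aligner or quantifier. Junction and contig tables on the older build mm9 were not used here. Gene names and coordinates came from GENCODE M21 (GRCm38, the mm10 build), and 42462 of 43346 gene identifiers matched. Spike-ins took 0.986% of counts in replicate 2 and 0.764% in replicate 1 and stayed out of library sizes.

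Rounded expected counts were kept for genes averaging 20 or more and scaled by TMM in R 4.3.3 with edgeR 4.0.16. Ratios (log2, replicate 2 over replicate 1) used 1 as prior count. A quasi-likelihood fit in edgeR has no residual degrees of freedom in this design. A two-sided exact binomial test with Benjamini-Hochberg adjustment over all 15939 genes was therefore used at 0.05. It was first run on simulated counts that held counting error only, which cannot show how it behaves on these libraries. Here the chi-square per gene tested was 77.6, so genes spread far more than by counting error. Alternatives used DESeq2 1.42.0 size factors, spike-ins, posterior means, other filters, log2(TPM + 1) and edgeR's exactTest with the common dispersion of the 2 libraries (biological coefficient of variation 0.203). The remaining steps ran in Python 3.11.15 (pandas 2.3.3, scipy 1.17.1, numpy 2.4.6 and, for plots, matplotlib 3.10.9). For a gene at 0 counts the upper limit is 3 counts, or 0.0859 CPM in replicate 2 and 0.0730 CPM in replicate 1. Intervals cover counting error only. P-values of the binomial test measure departure from counting error alone and allow for no other spread between libraries.

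The members and gene lists were chosen with earlier results of these data known. Named members are those with a mean of 10 TPM or more, over 2-fold different or heading a cluster, and the others are given by cluster. From other lists the 3 highest and any over 2-fold different were named, and of marker lists the highest.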

Additional observations from a re-analysis of the deposited data

How the results depend on the processing

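The count of members at 1 TPM in both libraries was 29, and 34 at 0.1 TPM, 20 at 10 TPM, 29 with posterior means or either library alone, and 28 from forms of at least 1000 bases. Those long forms, chosen after seeing the data, gave a median of 8.43 TPM, a maternally expressed sum of 523 TPM and a paternally expressed sum of 423 TPM. Without replicate 1 and without replicate 2 the median was 11.7 and 17.2 TPM, the maternally expressed sum 853 and 1038 TPM, and the paternally expressed sum 758 and 893 TPM.

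With spike-in scaling 0 members were higher and 26 of 33 lower, while 78.9% of all genes were called in either direction, the median log2 ratio was -0.54 (-0.44 over all genes) and 4 members passed 2-fold. Log2 ratios that changed sign there were Meg3 -0.41, Asb4 -0.13, Ndn -0.33, Ascl2 -0.25, Osbpl5 -0.42, Igf2r -0.41, Impact -0.32 and Inpp5f -0.068. The uniform shift of the scaling moved them. Bonferroni adjustment left 2 higher and 8 lower (29.9% of all genes called), and edgeR's exactTest called 0 higher and 0 lower (141 of all genes). Members over 2-fold numbered 3 with no filter on counts, 0 at a mean count of at least 100, 0 as log2(TPM + 1) and 0 as log2(TPM + 0.1). The share of all genes over 2-fold was worked out at the main setting alone, where it was 3.99%. The counts of members over 2-fold at other settings, spike-in scaling among them, therefore cannot be read against all genes. DESeq2 size factors gave 7 higher and 15 lower (56.2% of all genes called), adding Meg3 and losing Sgce. Posterior mean counts kept all 33 calls. No paired analysis was possible because the design holds 1 group. Depth limits Rtl1, Usp29, Zim1, Magel2 and Phlda2, whose mean counts were under 20 and which were not tested.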
